A study of Homo sapiens with 6 samples.

Results

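The 35 synaptic vesicle and synapse genes described here were chosen by symbol from a list of vesicle release, adhesion, receptor and scaffold genes, and all 35 were found among the 40111 genes of the deposited table. They were chosen with earlier results of these data known. Messenger RNA had been sequenced in BE(2)-M17 cells, a human neuroblastoma line labelled as neuroblast, in 3 knockdown libraries with a CRISPR-Cas9 vector against the long non-coding RNA LINC00894 and in 3 control libraries with the genotype label NC. The labels name no guide, clone or culture, and a p-value here reflects library-to-library spread alone, whether biological or technical. Values are FPKM, read density scaled to gene length and library size, and fold changes were taken on log2(FPKM + 0.1), where the change of weakly expressed genes comes out too small. Genes had to reach 0.5 FPKM in 3 or more libraries to be tested, which 25 of the 35 did. Because a gene could pass through the 3 libraries of the group where it is higher, the 25 do not stand for all 35.

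Synapse genes encode the proteins that store, dock and release transmitter vesicles and the receptors, adhesion proteins and scaffolds that face them across the cleft. A vesicle fuses when a SNARE protein in its membrane zips onto a pair of SNAREs in the plasma membrane, synaptotagmins trigger that step on calcium entry, and NSF with its SNAP adaptors pulls the spent complexes apart. Neurexins and neuroligins join the 2 sides, and scaffold proteins such as PSD-95 hold glutamate receptors in place. Neuroblastoma cells stem from sympathetic precursors and are often used as a stand-in for neurons.

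Depth, in reads assigned to genes, was 22898079, 28339105 and 28782977 in knockdowns 1, 2 and 3. In controls 1, 2 and 3 it was 29276653, 48089716 and 43219009. Every knockdown was shallower than every control, and control 1 was the control nearest to the knockdowns. The part of depth in the results below was not tested. LINC00894 measured 1.10, 1.30 and 0.867 FPKM in knockdowns 1, 2 and 3, against 2.00, 2.24 and 2.21 FPKM in controls 1, 2 and 3 (log2 fold change -0.93, SE 0.17, limma adjusted p = 0.0406). ATF3, the stress-induced transcription factor named in the study's title, fell to 163, 155 and 167 FPKM in the knockdowns, against 239, 352 and 415 FPKM in the controls (log2 fold change -1.01, SE 0.20, limma adjusted p = 0.0415). Across all 18548 genes tested, 1150 passed an adjusted p under 0.05 in limma, or 6.20%, with 768 higher (4.14%) and 382 lower (2.06%) in the knockdown. Without any one library other than control 1, limma called 0 genes, so LINC00894 and ATF3 no longer passed, with between 3676 and 4530 at an unadjusted p under 0.05, and without control 1 it called 8093. Control 1 stood apart from the other 2 controls: in 60.8% of genes tested its distance to the average knockdown was smaller than to the average of the other controls. Results are therefore given with and without it, and since it was set aside after its values were seen, values without it are a description. The median log2 fold change of all genes was 0.07, and -0.05 with median-of-ratios size factors, so directions of small differences depend on the scaling.

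Defining markers went partly against the label neuroblast. PHOX2A, a transcription factor of sympathetic neuroblasts, had 2 reads in knockdown 3 and 0 reads in the other 5 libraries, where a count of 0 allows up to 3 reads, or 0.035 FPKM in the deepest library. MYCN, for whose amplification the parent tumour line is known, measured between 0.162 and 0.267 FPKM in the knockdowns and between 0.168 and 0.235 FPKM in the controls. Other markers of the sympathetic lineage were present: GATA2 measured between 27.1 and 29.7 FPKM in the knockdowns and between 16.2 and 24.9 FPKM in the controls, and GATA3, ISL1 and HAND2 had control means of 4.46, 4.39 and 1.43 FPKM. Of the 11 listed neuroblast markers in the table, 4 had a control mean of at least 1 FPKM, and TH was not analysed here. Among markers of other cells, the keratin genes KRT8 and KRT18 had control means of 20.2 and 13.5 FPKM. Of the 7 epithelial markers 5 had a control mean of at least 1 FPKM, and the 7 summed to between 40.0 and 42.9 FPKM in the controls. Of the 9 Schwann and glial markers 3 had a control mean of at least 1 FPKM, and the 9 summed to between 9.105 and 9.69 FPKM in the controls. All 8 fibroblast and endothelial markers summed to between 0.671 and 1.01 FPKM in the knockdowns and between 0.354 and 0.769 FPKM in the controls. Blood cell markers summed over 10 genes to between 518 and 897 FPKM in the knockdowns and to 7.17, 4.25 and 315 FPKM in controls 1, 2 and 3. Of the 7 tested, limma called 3 higher in the knockdown, the globin genes HBA1, HBA2 and HBB, beside 6.20% of all genes. The part of these markers in the results below was not tested.

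Upstream sequences are shown for the members whose window held either of a pair of motifs: RE1, bound by the repressor of neuronal genes REST, and the CRE element, bound by ATF and CREB factors, the family to which ATF3 belongs. RefSeq gave 55 start sites for 30 of the 35 genes, and the 250 bases before each start were searched on both strands. RE1 was searched as a left part, TTCAGCACC, and a right part, shown by the capitals in UNC13A. Only exact matches were searched. In GRIA2 both parts, and in UNC13A the right part, lie on the strand opposite to the gene, so the printed letters are their reverse complement. The left part was in 0.288% of the 35116 windows of all genes, among them those of GRIA2 and SYN1, and the right part in 0.199%, among them those of GRIA2 and UNC13A. Exact matches to both parts at the spacing of the whole element were in 2 windows, or 0.0057%, 1 of them that of GRIA2. In SYN1 the left part is followed at that spacing by ggacagtgcc, which differs from the right part by 1 letter. How many other windows hold such near matches was not searched. The CRE palindrome TGACGTCA was in 1.65% of all windows and in those of SYN1 and DLG4. The AP-1 element TGACTCA was searched as well and was in 3 of the 55 windows, those of DLG2, DLG4 at another start site and RIMS1, beside 4.2% of all windows, and these are not printed. Capitals mark the matches, read 5′ to 3′ on the strand of the gene and ending at the base before the start, in GRCh38.p14. The GRIA2 window is chr4:157220369-157220618 on the plus strand, and those of SYN1, UNC13A and DLG4 are chrX:47619858-47620107, chr19:17688355-17688604 and chr17:7205188-7205437 on the minus strand. A match is a description of letters, not a bound site.
GRIA2: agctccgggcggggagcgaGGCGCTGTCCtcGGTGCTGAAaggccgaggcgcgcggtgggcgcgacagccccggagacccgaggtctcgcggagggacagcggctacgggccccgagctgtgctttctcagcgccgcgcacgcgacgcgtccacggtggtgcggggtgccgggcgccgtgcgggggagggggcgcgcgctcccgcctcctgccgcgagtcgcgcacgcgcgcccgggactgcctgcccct
SYN1: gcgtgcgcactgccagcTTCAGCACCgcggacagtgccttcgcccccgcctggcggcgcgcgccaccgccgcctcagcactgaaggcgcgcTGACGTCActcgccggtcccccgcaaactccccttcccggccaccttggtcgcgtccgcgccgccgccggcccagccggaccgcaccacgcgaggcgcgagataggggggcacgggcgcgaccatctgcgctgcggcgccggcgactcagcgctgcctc
UNC13A: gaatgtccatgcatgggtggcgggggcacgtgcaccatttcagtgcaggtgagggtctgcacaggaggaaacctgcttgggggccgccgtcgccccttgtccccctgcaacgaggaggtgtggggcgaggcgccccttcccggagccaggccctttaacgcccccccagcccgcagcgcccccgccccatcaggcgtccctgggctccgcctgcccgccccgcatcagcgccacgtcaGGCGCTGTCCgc
DLG4: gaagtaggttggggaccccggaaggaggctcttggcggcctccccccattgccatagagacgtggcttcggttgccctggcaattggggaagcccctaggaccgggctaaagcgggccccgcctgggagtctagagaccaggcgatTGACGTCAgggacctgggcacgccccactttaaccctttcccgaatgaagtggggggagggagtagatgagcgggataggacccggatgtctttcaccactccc

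In control cells the messenger RNA levels of the synapse genes were uneven. Of the 35 genes, 19 had a control mean of at least 1 FPKM, 11 of at least 5 FPKM and 4 of at least 10 FPKM, while 9 lay from 0.1 to under 1 FPKM and 7 under 0.1 FPKM. The 4 highest were the neuroligin NLGN2 at 21.1 ± 2.42 FPKM, the vesicle SNARE VAMP2 at 16.4 ± 1.78 FPKM, the vesicle glycoprotein SV2A at 11.96 ± 1.32 FPKM and the SNAP adaptor NAPB at 10.7 ± 2.72 FPKM (SD, n = 3). DLG3 and NSF followed at 9.73 ± 1.38 and 8.99 ± 0.277 FPKM (SD, n = 3). VAMP2's control mean exceeded that of 85.6% of the genes tested. At the other end stood RIMS1, SV2B, SYT4 and CPLX2, each with 10 reads or fewer in every library.

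**Figure D1:**
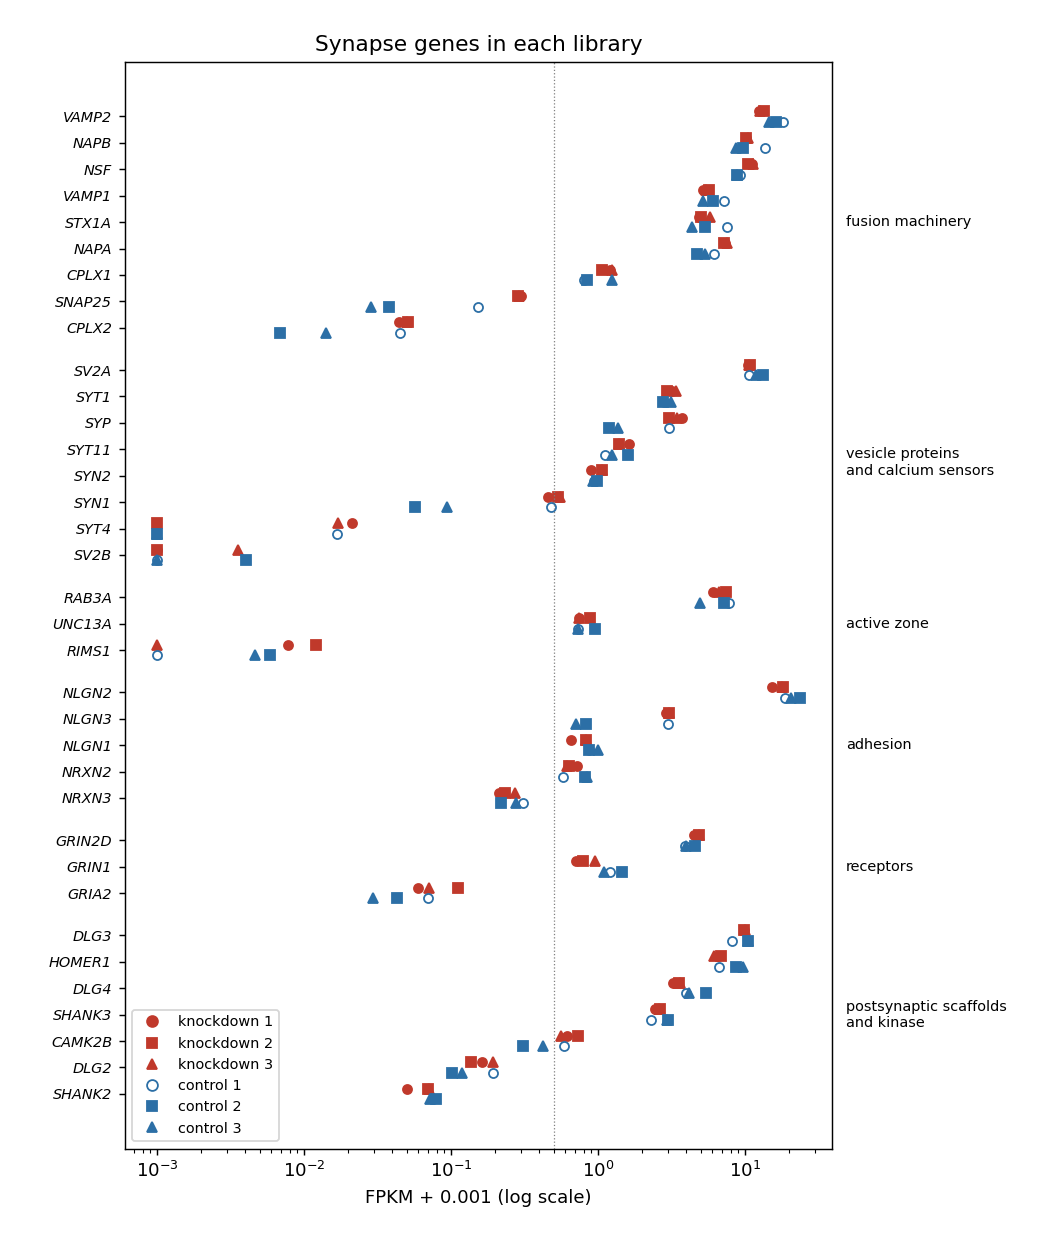
FPKM + 0.001 of the 35 synapse genes on a log axis, 1 point per library, grouped by role and ordered by control mean, with the knockdown points above the control points of each gene. The dotted line marks 0.5 FPKM, and NLGN2, VAMP2, SV2A and NAPB have the highest control means; control 1 (open circles) lies with the knockdowns for NLGN3, SYP and SYN1.

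Of the 25 genes tested, 0 passed limma's adjusted p of 0.05, against 6.20% of all genes. At an unadjusted p under 0.05 there were 8, 4 higher and 4 lower in the knockdown, or 32.0% beside 32.6% of all genes. With median-of-ratios size factors 1 passed, VAMP2, beside 4.49% of all genes. Limma-voom on the reads recovered from the FPKM values called 5 of the 25, with NAPA, NSF, SYP and NLGN3 higher and GRIN1 lower, beside 17% of all genes. The log2 fold change was above 0 in 12 and below 0 in 13, with a median of -0.02. The groups did not overlap in 8 of the 25, beside 38.2% of all genes, 3 with the knockdown higher (background 23.9%) and 5 with it lower (14.3%). The 95% interval of the log2 fold change lay within 1 unit of 0 in 21 of the 25 and within 0.5 units in 10. A lower level in bulk RNA cannot tell fewer cells of a kind from less RNA per cell.

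**Figure D2:**
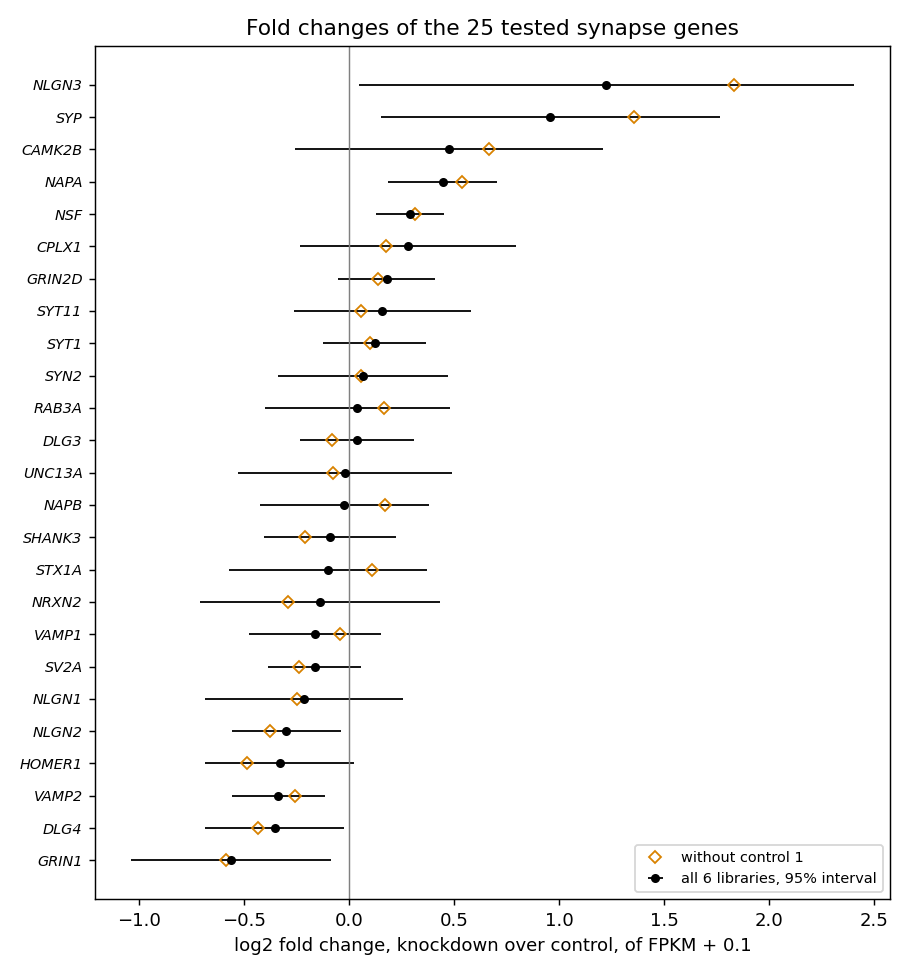
Log2 fold change of knockdown over control for the 25 tested synapse genes, from limma on log2(FPKM + 0.1). Filled points with bars give all 6 libraries with the 95% interval and open diamonds the value without control 1; NLGN3 and SYP have the highest values, 1.22 and 0.96, and the widest shifts without control 1.

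Among the fusion genes, NSF, the ATPase that takes SNARE complexes apart, measured 11.1, 10.5 and 11.4 FPKM in knockdowns 1, 2 and 3, against 9.31, 8.83 and 8.83 FPKM in controls 1, 2 and 3. Every knockdown library lay above every control. The log2 fold change was 0.29 (SE 0.07, 95% interval 0.12 to 0.45), with adjusted p of 0.0553 in limma, 0.0395 in limma-voom and 0.15 with median-of-ratios size factors. NSF lies on chromosome 17 from 46590669 to 46757464, plus strand, in GENCODE 29 on GRCh38. A pseudogene copy, NSFP1, read 2.52, 2.95 and 5.01 FPKM in the knockdowns and 6.15, 1.68 and 1.68 FPKM in the controls, so the split of reads between NSF and its copy is uncertain.

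NAPA, the alpha SNAP that recruits NSF to the complex, had 7.31, 7.27 and 7.54 FPKM in the knockdowns, against 6.14, 4.71 and 5.40 FPKM in the controls. Here too the groups did not overlap, and control 1 was the highest control. Its log2 fold change was 0.44 (SE 0.11, 95% interval 0.19 to 0.70), with adjusted p of 0.0579 in limma and 0.0296 in limma-voom. NAPA (chromosome 19 from 47487637 to 47515240, minus strand) shares 16.9% of its exon bases with the antisense RNA NAPA-AS1, which averaged 0.545 FPKM in the knockdowns and 0.548 FPKM in the controls, and the library protocol marks no strand. NAPB, the neuronal beta SNAP, measured 10.3, 10.3 and 10.5 FPKM in the knockdowns, against 13.8, 9.66 and 8.73 FPKM in the controls, which enclose the knockdown values.

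VAMP2, the main SNARE of synaptic vesicles, measured 12.5, 13.5 and 12.7 FPKM in the knockdowns, against 18.2, 16.4 and 14.7 FPKM in the controls. All knockdowns lay below all controls, and control 1 was the highest. The log2 fold change was -0.34 (SE 0.09, 95% interval -0.56 to -0.12), with adjusted p of 0.0709 in limma, 0.058 in limma-voom and 0.0419 with size factors. VAMP2 lies on chromosome 17 from 8159149 to 8163546, minus strand, and 13.2% of its exon bases are shared with AC129492.3, an annotated gene on the same strand. Its relative VAMP1 read 5.18, 5.73 and 5.45 FPKM in the knockdowns, against 7.23, 6.11 and 5.17 FPKM in the controls. STX1A, a SNARE of the presynaptic membrane, read 4.90, 5.02 and 5.82 FPKM in the knockdowns and 7.54, 5.35 and 4.405 FPKM in the controls. For both VAMP1 and STX1A the groups overlapped, and STX1A shares 17.9% of its exon bases with BUD23 on the other strand.

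SNAP25, the neuronal partner of STX1A in the plasma membrane, was close to undetected. It had 23, 27 and 28 reads in the knockdowns and 15, 6 and 4 reads in the controls, or 0.299, 0.284 and 0.290 FPKM in the knockdowns against 0.153, 0.0372 and 0.0276 FPKM in the controls. All knockdowns lay above all controls, but the level was under the filter and control 1 was the highest control. With no filter on low values its limma adjusted p was 0.138. SNAP23 and SNAP29, relatives found in most cells and chosen after their values were seen, had control means of 2.82 and 9.24 FPKM. The complexins clamp and promote SNARE zippering: CPLX1 read 1.21, 1.07 and 1.24 FPKM in the knockdowns, against 0.7997, 0.841 and 1.25 FPKM in the controls (log2 fold change 0.28, but 0.17 without control 1 and 0.47 without control 3), and CPLX2 had between 7 and 10 reads in the knockdowns and 9, 2 and 4 reads in the controls.

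Of the vesicle proteins, SYP, or synaptophysin, the tetraspan protein of small vesicles, measured 3.76, 3.07 and 3.45 FPKM in the knockdowns, against 3.05, 1.19 and 1.36 FPKM in the controls. Control 1 lay just under the lowest knockdown, whereas controls 2 and 3 were far lower. Its log2 fold change was 0.96 (SE 0.34, 95% interval 0.15 to 1.76), with adjusted p of 0.112 in limma and 0.0426 in limma-voom. The gene lies on chromosome X from 49187804 to 49200259, minus strand. SV2A, which the antiepileptic drug levetiracetam binds, read 10.5, 10.8 and 10.6 FPKM in the knockdowns and 10.7, 13.3 and 11.8 FPKM in the controls. Its relative SV2B had at most 2 reads in any library.

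Synaptotagmin SYT1, the fast calcium sensor, read 3.20, 2.95 and 3.38 FPKM in the knockdowns, against 2.83, 2.79 and 3.13 FPKM in the controls (95% interval of the log2 fold change -0.13 to 0.37). SYT11, a synaptotagmin that does not bind calcium, had 1.63, 1.40 and 1.40 FPKM in the knockdowns and 1.12, 1.60 and 1.25 FPKM in the controls. SYT4 had 2 reads in each of knockdowns 1 and 3 and in control 1 and 0 reads in the other libraries, where a count of 0 allows up to 3 reads. The synapsins tether vesicles to actin. SYN2 read 0.897, 1.059 and 1.065 FPKM in the knockdowns and 0.939, 0.992 and 0.932 FPKM in the controls. SYN1 read 0.456, 0.539 and 0.549 FPKM in the knockdowns and 0.476, 0.0557 and 0.093 FPKM in the controls, from 39, 57 and 59 reads in the knockdowns and 52, 10 and 15 reads in the controls. Control 1 thus lay among the knockdowns for SYN1. Its window above holds a CRE and the left part of RE1, with a near match to the right part beside it.

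At the active zone, where vesicles dock, RAB3A, the GTPase of docked vesicles, measured 6.09, 7.49 and 6.67 FPKM in the knockdowns, against 7.80, 7.28 and 4.94 FPKM in the controls. UNC13A, the priming factor Munc13-1, measured 0.738, 0.890 and 0.740 FPKM in the knockdowns, against 0.733, 0.958 and 0.728 FPKM in the controls. The groups overlapped for both, with 95% intervals of the log2 fold change of -0.40 to 0.48 for RAB3A and -0.53 to 0.49 for UNC13A. RIMS1, a scaffold that ties RAB3A to UNC13A, had at most 4 reads in any library.

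In the adhesion group, NLGN2, the neuroligin of inhibitory synapses, measured 15.4, 18.1 and 17.9 FPKM in the knockdowns, against 18.9, 23.7 and 20.8 FPKM in the controls. All knockdowns lay below all controls, by a small margin at control 1. On the log2 scale the difference was -0.30 (SE 0.11, 95% interval -0.56 to -0.04, limma adjusted p = 0.118). NLGN2 lies on chromosome 17 from 7404874 to 7419860, plus strand. NLGN1, which acts at excitatory synapses, read 0.658, 0.828 and 0.832 FPKM in the knockdowns and 0.868, 0.871 and 0.996 FPKM in the controls, and its groups did not overlap either (limma adjusted p = 0.471). NLGN3 measured 2.90, 3.04 and 3.07 FPKM in the knockdowns, against 2.99, 0.836 and 0.710 FPKM in the controls. Control 1 lay within the range of the knockdowns. Its log2 fold change of 1.22 was the largest of the 25 (SE 0.49, 95% interval 0.04 to 2.40), with adjusted p of 0.143 in limma and 0.0487 in limma-voom. NLGN3 lies on chromosome X from 71144831 to 71171201, plus strand.

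The neurexins, presynaptic partners of the neuroligins, were low. NRXN2 read 0.726, 0.636 and 0.614 FPKM in the knockdowns and 0.574, 0.813 and 0.841 FPKM in the controls, and NRXN3 between 0.211 and 0.273 FPKM in the knockdowns and between 0.217 and 0.310 FPKM in the controls. For each, the groups overlapped.

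Among the glutamate receptor genes, GRIN1, the obligatory subunit of NMDA receptors, measured 0.708, 0.793 and 0.954 FPKM in the knockdowns, against 1.20, 1.47 and 1.11 FPKM in the controls. All knockdowns lay below all controls, and control 1 lay between the other 2 controls. The log2 fold change was -0.56 (SE 0.20, 95% interval -1.04 to -0.09), the lowest of the 25, with adjusted p of 0.111 in limma and 0.044 in limma-voom. GRIN1 lies on chromosome 9 from 137138390 to 137168762, plus strand, and the gene length implied by the deposited values was 10233 bases, against 6729 exon bases in GENCODE 29, so the authors' gene model differs. GRIN2D, a subunit of embryonic NMDA receptors, read 4.501, 4.85 and 4.85 FPKM in the knockdowns and 3.94, 4.615 and 3.997 FPKM in the controls. GRIA2, the AMPA receptor subunit that blocks calcium entry, had 12, 28 and 18 reads in the knockdowns and 18, 18 and 11 reads in the controls. GRIA2 is the member with an exact match to the full RE1 in its window.

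Of the postsynaptic genes, DLG4, which encodes PSD-95, measured 3.24, 3.57 and 3.65 FPKM in the knockdowns, against 4.003, 5.44 and 4.15 FPKM in the controls. All knockdowns lay below all controls, with control 1 the lowest control. On the log2 scale the difference was -0.36 (SE 0.14, 95% interval -0.69 to -0.03, limma adjusted p = 0.133). This difference was -0.22 without control 2 and -0.44 without control 1. DLG4 lies on chromosome 17 from 7187169 to 7219841, minus strand. DLG3, which encodes SAP102, read 9.95, 9.81 and 10.02 FPKM in the knockdowns and 8.14, 10.6 and 10.5 FPKM in the controls, and DLG2, which encodes PSD-93, between 0.135 and 0.193 FPKM in the knockdowns and between 0.101 and 0.192 FPKM in the controls. HOMER1, which links metabotropic receptors to calcium stores, read 6.58, 6.90 and 6.15 FPKM in the knockdowns, against 6.63, 8.67 and 9.78 FPKM in the controls, with control 1 inside the range of the knockdowns (log2 fold change -0.33, SE 0.15, limma adjusted p = 0.174). It was -0.21 without control 3 and -0.49 without control 1.

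SHANK3, a scaffold that joins Homer to the PSD-95 complex, measured 2.45, 2.64 and 2.61 FPKM in the knockdowns and 2.31, 3.02 and 2.95 FPKM in the controls. SHANK2 lay between 0.0497 and 0.0701 FPKM in the knockdowns and between 0.0706 and 0.0785 FPKM in the controls. CAMK2B, the beta subunit of the calcium and calmodulin kinase, measured 0.621, 0.727 and 0.562 FPKM in the knockdowns, against 0.586, 0.308 and 0.425 FPKM in the controls (log2 fold change 0.47, SE 0.30, limma adjusted p = 0.318). Its log2 fold change was 0.29 without control 2 and 0.66 without control 1. In SHANK3 and CAMK2B the groups overlapped.

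Several members split the controls more than they split the groups. Control 1 was 6.40-fold above the mean of controls 2 and 3 for SYN1, 4.71-fold for SNAP25, 3.87-fold for NLGN3 and 2.39-fold for SYP. The knockdown mean was 1.08-fold, 1.91-fold, 1.003-fold and 1.12-fold control 1 for SYN1, SNAP25, NLGN3 and SYP. Over the 25 genes tested, control 1 lay nearer to the knockdown mean than to controls 2 and 3 in 15, beside 60.8% of all genes. REST, the repressor of neuronal genes, split the same way, at 11.2, 11.0 and 10.1 FPKM in the knockdowns and 11.0, 8.01 and 8.17 FPKM in the controls. HSPA6, an inducible heat shock gene chosen after its values were seen, was at 195, 155 and 161 FPKM in the knockdowns and 161, 0.83 and 1.18 FPKM in the controls, and the part of either gene in these values was not tested. Without control 1, limma called 9 of the 25, with NAPA, NSF, NLGN3 and SYP higher and VAMP2, NLGN2, DLG4, HOMER1 and SV2A lower, beside 43.6% of all genes. Without any one of the other 5 libraries, 0 of the 25 passed. Between 3 and 6 of the 25 had an unadjusted p under 0.05 in limma, beside between 3676 and 4530 of all 18548 genes.

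**Figure D3:**
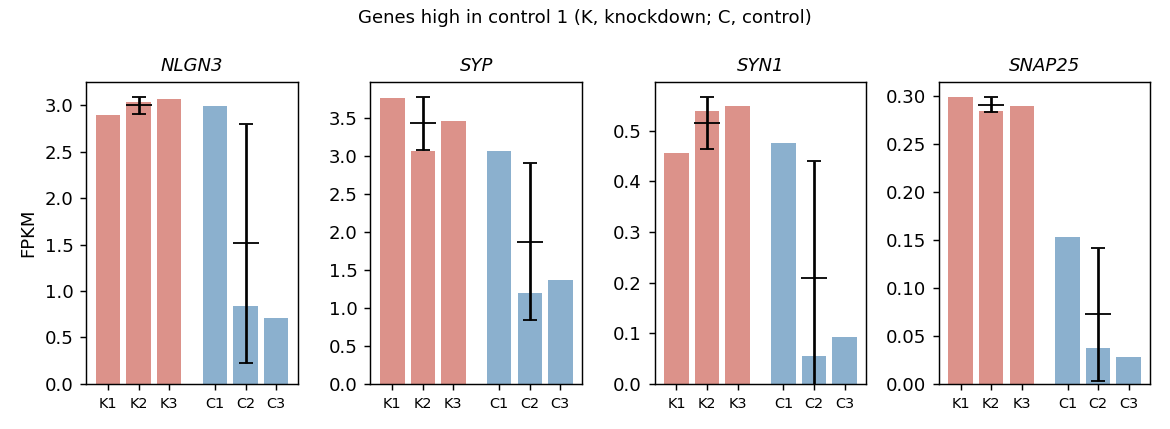
FPKM per library of NLGN3, SYP, SYN1 and SNAP25, with the 3 knockdown libraries left of the 3 control libraries and each group's mean ± SD (n = 3) in black. For NLGN3, control 1 at 2.99 FPKM matches the knockdowns at 2.90, 3.04 and 3.07 FPKM, whereas controls 2 and 3 are at 0.836 and 0.710 FPKM.

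Ratios within a library do not depend on the scaling between libraries, so the balance of related genes was compared as each gene's share of the summed FPKM of its family, in 11 families. GRIN1 made up 14.7 ± 1.52% of GRIN1 and GRIN2D in the knockdowns and 23.0 ± 1.25% in the controls (SD, n = 3). The knockdowns, at 13.6%, 14.1% and 16.4%, all lay below the controls, at 23.4%, 24.1% and 21.7%, and control 1 stood with the other controls. NAPA took 41.6 ± 0.115% of NAPA and NAPB in the knockdowns and 33.9 ± 3.88% in the controls, and DLG3 took 73.1 ± 1.22% of the 3 DLG members in the knockdowns and 67.6 ± 3.06% in the controls (SD, n = 3). VAMP2 took 70.3 ± 0.371% of VAMP1 and VAMP2 in the knockdowns and 72.8 ± 1.17% in the controls. The exact two-sided permutation p was 0.10 for each of GRIN1, NAPA, DLG3 and VAMP2 and also for SYN1 and NLGN3, the smallest that 3 against 3 libraries allow, or 0.183 adjusted over the 11 families.

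Again control 1 lay with the knockdowns in the shares of SYN1 and NLGN3. SYN1 was 33.7%, 33.7% and 34.0% of SYN1 and SYN2 in the knockdowns, against 33.6%, 5.32% and 9.07% in the controls. NLGN3 was 15.3%, 13.8% and 14.1% of the 3 neuroligins in the knockdowns, against 13.1%, 3.29% and 3.16% in the controls. In the families of CPLX1, SYT1, SV2A, NRXN2 and SHANK3 the groups overlapped, with exact permutation p between 0.40 and 1.

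**Figure D4:**
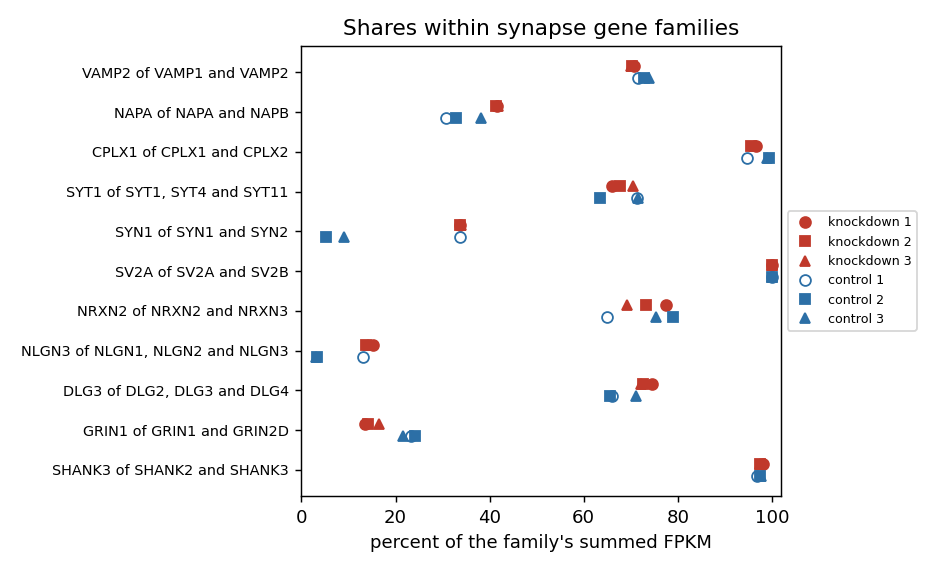
Share of 1 gene in the summed FPKM of its family, in percent, for 11 families and 6 libraries, with the knockdown points above the control points. GRIN1 lies between 13.6% and 16.4% in the knockdowns and between 21.7% and 24.1% in the controls, while control 1 (open circles) lies with the knockdowns for SYN1 and NLGN3.

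Beyond the 35, a wider set of 164 synapse genes listed by function, of which 156 were in the table and 86 were tested, had 3 genes that fell and 0 that rose in limma, beside 6.20% of all genes. RIMS3, a short RIM protein of the active zone, fell to 3.23, 3.33 and 3.54 FPKM in the knockdowns, against 5.12, 5.29 and 5.32 FPKM in the controls (log2 fold change -0.62, SE 0.08, limma adjusted p = 0.0335). DNM1, the neuronal dynamin that cuts endocytic vesicles from the membrane, fell to 16.5, 19.7 and 18.8 FPKM in the knockdowns, against 25.6, 30.8 and 28.4 FPKM in the controls (log2 fold change -0.62, SE 0.10, limma adjusted p = 0.0379). GABBR1, a subunit of the metabotropic GABA receptor, fell to 8.59, 10.6 and 10.1 FPKM in the knockdowns, against 14.3, 15.7 and 15.3 FPKM in the controls (log2 fold change -0.63, SE 0.10, limma adjusted p = 0.0358). For these 3 genes control 1 lay with the other controls and the groups stood well apart. RIMS3 lies on chromosome 1, DNM1 on 9 and GABBR1 on 6, and 8.52% of the exon bases of GABBR1 are shared with each of UBD and OR2I1P. None of RIMS3, DNM1 and GABBR1 passed without any one library other than control 1, with adjusted p between 0.0919 and 0.17, although their log2 fold changes stayed between -0.69 and -0.54.

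By role, limma called 0 of 18 other fusion and vesicle genes, 1 of 18 other active zone genes, 1 of 13 endocytosis genes, 0 of 13 other adhesion genes, 1 of 8 other receptor genes and 0 of 15 other scaffold and kinase genes, beside 6.20% of all genes. At an unadjusted p under 0.05, where all genes gave 32.6%, these roles had 7 fusion and vesicle, 6 active zone, 3 endocytosis, 6 adhesion, 3 receptor and 3 scaffold and kinase genes. Limma-voom, with 17% of all genes, called 2 fusion and vesicle, 4 active zone, 1 endocytosis, 3 adhesion, 3 receptor and 2 scaffold and kinase genes. The 1 transmitter transporter tested, the vesicular glutamate transporter SLC17A7, did not pass in either tool, at 1.91, 2.22 and 2.51 FPKM in the knockdowns and 3.27, 2.29 and 1.75 FPKM in the controls. Of the 86 genes, 28 had an unadjusted p under 0.05, a share close to the 32.6% of all genes, with 9 higher and 19 lower beside 3893 higher and 2157 lower among all 18548 genes. The median log2 fold change was -0.09 beside 0.07 for all genes. Limma-voom called 6 higher and 9 lower in the wider set, 15 of 86 beside 17% of all genes, of which 2322 were higher and 826 lower. Of the 8 genes of the REST complex listed, 0 passed in limma (background 6.20%), 1 had an unadjusted p under 0.05 (32.6%) and 0 passed in limma-voom (17%).

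**Figure D5:**
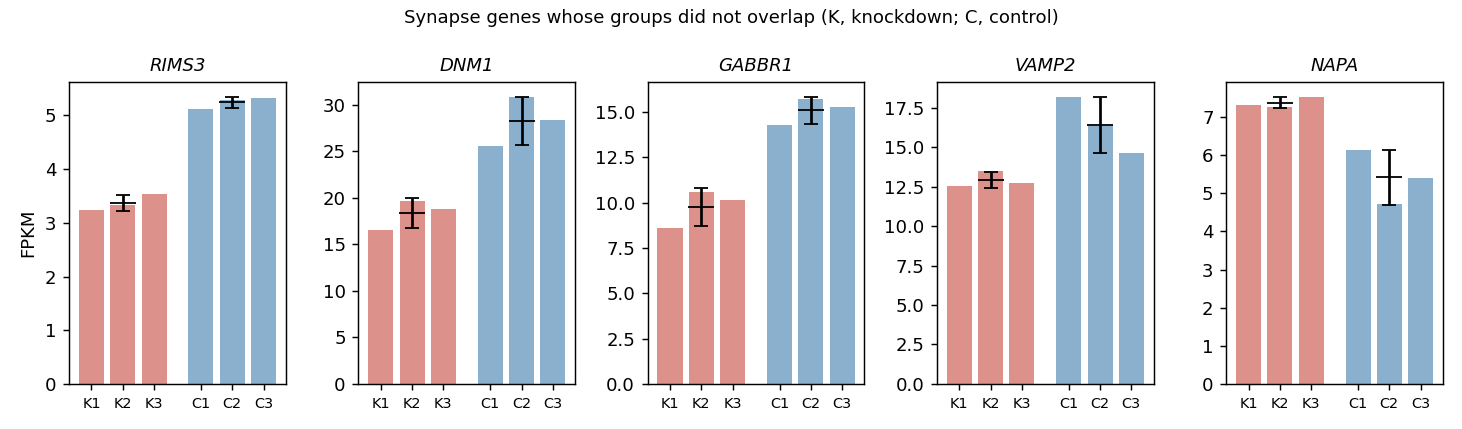
FPKM per library of RIMS3, DNM1, GABBR1, VAMP2 and NAPA, with the 3 knockdown libraries left of the 3 control libraries and each group's mean ± SD (n = 3) in black. RIMS3, DNM1 and GABBR1 passed limma's threshold; VAMP2 and NAPA did not, and in each of the 5 the groups do not overlap.

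In the authors' deposited table, which rests on another scaling and a test that is not named, 6 of the 35 had an adjusted p under 0.05, beside 7.45% of all genes with a p there. Because the members were chosen with earlier results of these data known, the 2 shares are a description and no excess can be read from them. According to the authors' deposited table, VAMP2, GRIN1, DLG4 and NLGN2 were lower, with log2 fold changes of -0.46, -0.74, -0.51 and -0.43. SYP and SNAP25 were higher there, with log2 fold changes of 0.78 and 1.98 in the authors' deposited table and adjusted p of 0.0468 and 0.0497. HOMER1 was next in the authors' deposited table, at an adjusted p of 0.0538.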

How the data were processed

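RNA-seq libraries of BE(2)-M17 cells, 3 knockdown and 3 control, were grouped by sample title. Per the labels' protocols, oligo-dT beads captured mRNA, and random priming gave cDNA without a strand mark. The submitters' processing notes name HISAT2. For the counter, genome build, annotation and test, the sources used here give nothing.

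Deposited values are FPKM per library, judged from the values. Per the file headers the same table holds a mean read signal per group, a log2 fold change and p-values. Whole reads were recovered from the deposited FPKM and group means, with 100% of values above 0 within 0.1 read of a whole number, and 0 value columns lacked a sample.

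The main test was limma 3.58.1, run in R 4.3.3 on log2(FPKM + 0.1) with its trend option, two-sided, for the 18548 genes that reached 0.5 FPKM in 3 or more libraries, adjusted over all of them by Benjamini-Hochberg. It was also run on simulated counts with the same dispersion for every gene and no deviating control library. That run cannot tell how the test performs on these data. Limma-voom used the recovered reads. Shares were compared with exact permutation tests (scipy 1.17.1). Alternatives were another pseudocount, no filter, size factors, no trend, limma-voom, a stricter threshold, a replicate block and each library left out. Leaving libraries out of the family shares was added after seeing the data. All 35 members are described, with every library's value for members past the test or among the 6 highest or 6 most different. Members of paralog families are given the same way, except CPLX2, SV2B, NRXN3, DLG2 and SHANK2, for which ranges or read limits stand in part. Other lists are named by genes past the test. The members and lists were chosen with earlier results of these data known. Coordinates are from GENCODE 29 on GRCh38 and upstream sequences from RefSeq on GRCh38.p14. Intervals and read limits cover the spread between libraries or counting error only.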

Additional observations from a re-analysis of the deposited data

How the results depend on the processing

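Over all genes, limma called 1150, against 42 with no filter on low values, 91 with no mean-variance trend, 3148 with limma-voom, 0 at an adjusted p under 0.01 and between 0 and 8093 with 1 library left out. Of the 25 members tested it called 0, against 1 with median-of-ratios size factors (VAMP2) and 5 with limma-voom. With 1 library left out it called between 0 and 9 of the 25. It called 0 of the 25 with a pseudocount of 1 FPKM or no trend, and 0 of all 35 with no filter. Of the 86 genes tested in the wider lists it called 3, against 15 with limma-voom, 0 with no trend and 0 at an adjusted p under 0.01. With 1 library left out it called between 0 and 39 of the 86, and with no filter 0 of 156. Among all 18548 genes, the same fits called 833 with size factors, 3148 with limma-voom and between 0 and 8093 with 1 library left out. Whether the members or wider lists differed from all genes was not tested. With size factors 338 genes were higher and 495 lower, so the share of calls that were higher was 40.6%, beside 66.8% under FPKM scaling, and the log2 fold changes of SYN2, RAB3A and DLG3 turned to -0.0444, -0.0822 and -0.0836. With 1 library left out, that of STX1A ranged from -0.28 to 0.11, NAPB from -0.16 to 0.17, RAB3A from -0.16 to 0.16, UNC13A from -0.10 to 0.0936 and DLG3 from -0.0848 to 0.10. LINC00894 was lower under all settings run (between -1.06 and -0.79 with 1 library left out), but its adjusted p was 0.0734 with no filter, 0.062 with no trend, 0.0613 with the block and between 0.11 and 0.17 without any one library other than control 1. The cause of these shifts was not tested.

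With the replicate number as a block, limma called 0 genes in all, 0 members and 0 of the wider lists, with 5990 genes at an unadjusted p under 0.05. Deviations of same-numbered libraries correlated at 0.15, 0.08 and 0.04, and those of differently numbered libraries at between -0.13 and 0.10. Knockdown 2 correlated more with control 3 (0.10) than with control 2. With 3 libraries per group, these values cannot tell whether the numbers pair the samples. Members under 0.5 FPKM rest on 0 to 185 reads per library, which limits their precision.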
